A study of Mus musculus with 16 samples.

Results

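The genes described here are 9 genes for small calcium-binding and lipid-binding proteins in the mouse corpus callosum during cuprizone (CPZ) feeding and after its withdrawal: the S100 genes S100a4, S100a6, S100a10 and S100a11, the annexins Anxa1, Anxa2, Anxa3 and Anxa5, and Lgals1, the gene of galectin-1. They were chosen by name, with earlier results of these data known, and every probe on the array that maps to one of them was taken. This gave 10 probes, 2 of them for Anxa2, among 41153 probes in all, and 9 of the 18737 genes that could be named. Callosal RNA was hybridised to 16 Agilent arrays in a single colour, and the labels number each array as a separate replicate. All mice were male, wild-type C57BL/6 animals, aged 7 to 8 weeks when they entered the experiments. Untreated mice were matched in age to the 4-week group, so a difference in age from the 2-week and regular-diet mice cannot be told apart from treatment. The untreated group (3 arrays) received standard chow without CPZ, a copper chelator that causes oligodendrocyte loss. A second group (3 arrays) was fed CPZ for 2 weeks and another group (4 arrays) for 4 weeks, at 0.2% of the chow by the methods and 0.2 to 0.4% by the labels. The regular diet group (6 arrays) returned to a normal diet after 4 weeks of CPZ. It holds mice at 2 days and at 14 days of regular diet, in equal number by a legend of the study. The labels do not say which array belongs to which time, so its mean is over both. The RNA came from whole dissected tissue, in which fewer cells of a type and less RNA per cell cannot be told apart.

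S100 proteins are small calcium sensors that dimerise and change the activity of a partner protein. Annexins are cytosolic proteins that bind negatively charged membrane lipids when calcium rises, and several of them carry an S100 dimer on their N-terminus, the best known pairs being annexin A2 with S100A10 and annexin A1 with S100A11. These pairs act in membrane repair, secretion and the surface assembly of plasmin-forming enzymes. Galectin-1 is a lectin, secreted without a signal peptide, that binds galactose-containing sugars on cell-surface glycoproteins such as CD45. In the injured brain, members of these families are known from reactive astrocytes and from activated microglia and macrophages.

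The promoters below show where on the genome the genes lie and what the stretches next to their starts do and do not have in common. S100a4, S100a6, S100a10 and S100a11 all lie on chromosome 3, where only S100a5 is annotated between S100a4 and S100a6. Promoter sequences of 6 of the 9 members were at hand, each with 250 bases before and 50 after the RefSeq start, on assembly GRCm38.p6. S100a10, Anxa3 and Lgals1 had no entry. Capitals mark the AP-1 motif TGANTCA and the TATA motif TATAAA. The windows shown are chr3:90603520-90603819 (S100a4, plus strand), chr3:90612644-90612943 (S100a6, plus strand), chr3:93520246-93520545 (S100a11, plus strand) and chr9:69453433-69453732 (Anxa2, plus strand).
S100a4: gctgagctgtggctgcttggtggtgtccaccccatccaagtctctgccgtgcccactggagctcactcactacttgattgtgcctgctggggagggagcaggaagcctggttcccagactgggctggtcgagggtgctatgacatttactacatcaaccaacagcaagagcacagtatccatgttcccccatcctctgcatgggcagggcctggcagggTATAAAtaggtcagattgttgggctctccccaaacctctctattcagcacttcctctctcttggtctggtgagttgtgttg
S100a6: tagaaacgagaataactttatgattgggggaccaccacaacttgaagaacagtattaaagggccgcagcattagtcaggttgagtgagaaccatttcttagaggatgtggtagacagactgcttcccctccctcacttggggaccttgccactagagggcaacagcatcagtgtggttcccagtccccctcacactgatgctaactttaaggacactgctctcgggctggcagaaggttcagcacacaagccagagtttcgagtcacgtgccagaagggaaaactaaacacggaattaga
S100a11: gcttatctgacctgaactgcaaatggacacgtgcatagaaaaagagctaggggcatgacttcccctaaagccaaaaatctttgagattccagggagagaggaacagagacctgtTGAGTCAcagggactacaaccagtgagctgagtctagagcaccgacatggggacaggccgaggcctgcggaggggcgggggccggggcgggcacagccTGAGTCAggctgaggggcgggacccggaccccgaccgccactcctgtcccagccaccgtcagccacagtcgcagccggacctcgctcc
Anxa2: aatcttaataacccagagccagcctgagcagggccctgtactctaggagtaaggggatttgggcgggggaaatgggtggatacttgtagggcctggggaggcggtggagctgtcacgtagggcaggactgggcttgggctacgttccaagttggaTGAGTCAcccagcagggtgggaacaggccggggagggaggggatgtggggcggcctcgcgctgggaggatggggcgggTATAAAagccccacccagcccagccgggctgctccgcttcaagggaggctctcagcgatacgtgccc
The AP-1 motif, searched on both strands, was found in 2 of the 6 promoters, at -136 and -38 from the start of S100a11 and at -95 from that of Anxa2, and in 7.81% of all 32851 promoters of this length. TATAAA was found in 3 of 6, at -31 in S100a4, -32 in Anxa1 and -17 in Anxa2, against 13.6% of all promoters. GGGCGG was found in 2 of 6 (S100a11 and Anxa2), against 35.7%, and TTCNNNGAA in none of the 6, against 8.30%. Motif matches are given as a description of these letters only.

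The values are log2 signals from the authors' processed table, scaled to the 75th percentile of each array and set, probe by probe, to the median of the 3 untreated arrays. A value of 1 is therefore a doubling over that median. Levels of different probes are not compared with each other. A gene is given by its brightest tested probe. A gene was called where limma gave an adjusted p below 0.05 (Benjamini-Hochberg, over all probes tested) and the difference was at least 2-fold. The p-values measure the spread between these arrays, which the labels do not tie to single mice. Before the results, a point about the labels: for 14 of the 16 samples, the scanner file recorded under the sample held another array than the column of the processed table named by that sample. The processed table was followed, since the median over its 3 untreated columns was exactly 0 for 100% of the probes, against 52.1% for the next best of the 560 sets of 3 columns. This check bears on the untreated columns only. It cannot tell which of the other columns belong to which group, and 13 of the 16 columns matched an array recorded under another condition. Under the recorded assignment no member was called in any comparison, nor was any other probe, of 26765 tested in the CPZ groups and 26850 with regular diet. There 4, 8 and 5 of the 9 differences from untreated turned negative at 2 weeks, at 4 weeks and on regular diet. Regular-diet arrays 1 and 2 stood apart from the others as a pair. With each probe centred on its mean over the 16 arrays, these 2 resembled each other (r = 0.883 over 21968 probes). No other pair of arrays went above 0.672. All 160 member values were well above background and none was saturated. On each array, 57.2 to 72.2% of probes were well above background. Of genes of myelinating oligodendrocytes, Mbp, Mag, Mobp and Cnp were well above background on all 16 arrays, and Mog and Opalin on 15. How evenly the tissue was dissected was not tested. The median of the 10 tested oligodendrocyte markers lay between -0.68 and 0.39 on the untreated arrays, and between -4.84 and -1.90 at 2 weeks, -4.66 and -1.69 at 4 weeks, and -3.69 and 0.58 on regular diet. Within regular diet, arrays 1 to 3 stood at -3.69, -3.41 and -2.96, and arrays 4 to 6 at -0.07, -0.07 and 0.58. S100a11, Anxa2, Anxa3, Anxa5 and Lgals1 were higher on each of arrays 1 to 3 than on each of arrays 4 to 6. S100a4 was lower, and S100a6, S100a10 and Anxa1 overlapped. Means over regular diet cover both sets, and how these relate to the time on the diet was not tested.

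All 9 members had a positive mean difference from untreated at 2 weeks, at 4 weeks and on regular diet, by between 0.24 and 2.20 on the log2 scale. S100a10 passed the call in all 3 comparisons and S100a6 on regular diet, though neither passed with the replicate number as a block. At 2 weeks 1 of the 9 members was called higher, against 0.0691% of all 27493 tested probes. At 4 weeks 1 was called higher (background 0.0909%), and on regular diet 2 of 9 (background 0.792% of 27773 probes). With a weight for each array, 6, 7 and 8 members were called higher in turn, in fits that called 3.88, 3.07 and 3.54% of all probes higher. The 8 included Anxa1, whose regular-diet difference was 0.24 without weights and 1.57 with them. The median difference of the 9 members was 1.16 at 2 weeks, 1.49 at 4 weeks and 1.46 on regular diet, where the medians over all probes were 0.04, -0.03 and -0.02. Without a correction for the number of probes, p was under 0.05 for 4, 6 and 7 members in turn, all of them higher, against 4.27, 5.06 and 6.07% of all probes in that direction. Because earlier results of these data were known when the members were chosen, their excess over all probes is not a test of the list.

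**Figure D1:**
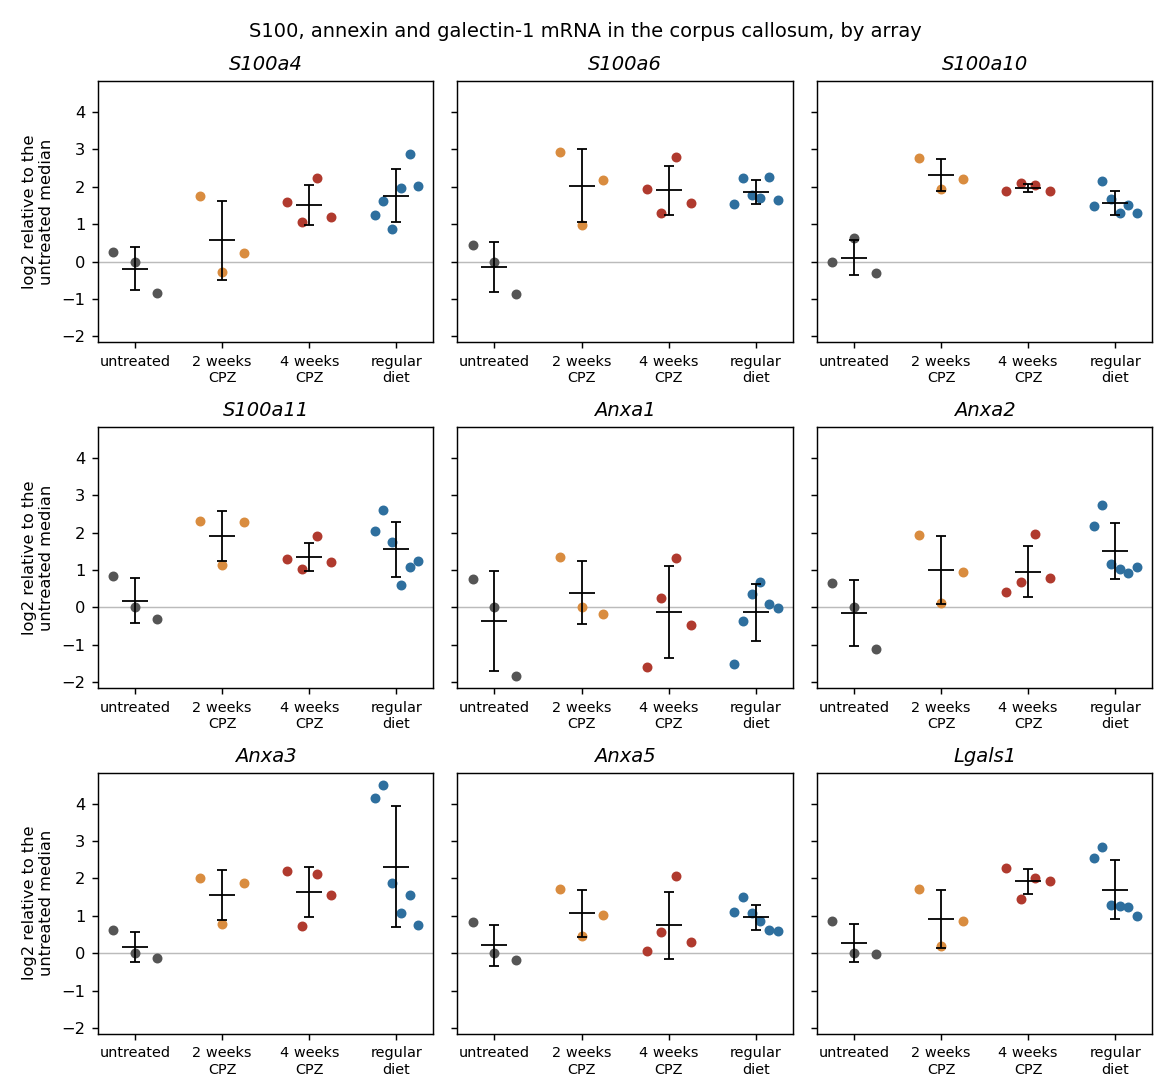
Log2 signal of each member (y axis, relative to the median of the untreated arrays) on every array, by group (x axis). Points are arrays in replicate order, bars the mean ± SD of 3 untreated, 3 2-week, 4 4-week and 6 regular-diet arrays. S100a6 and S100a10 lay above every untreated array in all 3 other groups, while Anxa1 overlapped with them throughout.

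S100a10 encodes a member that has lost the ability to bind calcium and is known as the light chain of annexin A2. Its values were 0.00, 0.62 and -0.30 on the untreated arrays, and 2.77, 1.94 and 2.20 at 2 weeks. At 4 weeks they were 1.88, 2.10, 2.04 and 1.89, and on regular diet they ran from 1.29 over a median of 1.49 to 2.17. All 13 later arrays lay above all 3 untreated arrays, and the 4 arrays at 4 weeks were the tightest of any group of any member (SD 0.11, n = 4). The difference from untreated was 2.20 ± 0.29 (SE) at 2 weeks, a 4.58-fold rise (adjusted p = 0.0304). It was 1.87 ± 0.27 at 4 weeks, a 3.65-fold rise (adjusted p = 0.0454). On regular diet it was 1.46 ± 0.24, a 2.75-fold rise (adjusted p = 0.0109). Leaving out 1 array kept the difference between 1.96 and 2.45 at 2 weeks, 1.67 and 2.13 at 4 weeks, and 1.26 and 1.72 on regular diet. The call at 2 weeks was lost without untreated array 1 (adjusted p = 0.114) or 3 (0.0745), 2-week array 1 (0.0737) or 3 (0.131), or 4-week array 4 (0.0855). At 4 weeks it held in 2 of 10 such fits, without untreated array 1, 2 or 3 reaching 0.0655, 0.0939 and 0.172, without 2-week array 1 or 3 reaching 0.0516 and 0.0969, and without 4-week array 1, 3 or 4 reaching 0.118, 0.0985 and 0.166. The regular-diet call held in 14 of 16, and ended without untreated array 1 (0.056) or 3 (0.107). With all arrays kept, the 2-week call ended with the slide as a fixed block (0.0612). The 4-week call ended after quantile normalization (0.0669) or with no filter on dim probes (0.0563).

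S100a6, also called calcyclin, is a calcium sensor of many dividing and glial cells. It stood at 0.44, 0.00 and -0.87 on the untreated arrays, and at 2.92, 0.98 and 2.19 at 2 weeks. At 4 weeks it stood at 1.95, 1.30, 2.81 and 1.57, and on regular diet it ran from 1.54 over a median of 1.75 to 2.27. All 13 later arrays lay above all 3 untreated arrays. The difference of 2.17 ± 0.56 (SE) at 2 weeks did not pass the call (adjusted p = 0.16), nor did that of 2.05 ± 0.53 at 4 weeks (adjusted p = 0.157). The regular-diet difference was 2.00 ± 0.41, a 4.01-fold rise (adjusted p = 0.0376). That call held in 4 of 16 fits without 1 array. It was lost without untreated array 1, 2 or 3 (adjusted p 0.056, 0.138 and 0.252), without 2-week array 3 (0.0565), without 4-week array 1 or 4 (0.0537 and 0.0565), and without any 1 of the regular-diet arrays 1 to 6 (0.0511 to 0.0758). Without regular-diet arrays 1 and 2 the difference was 1.99, with an adjusted p of 0.0967.

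S100a4, a calcium sensor that binds non-muscle myosin and is used as a marker of motile and fibroblast-like cells, lies near S100a6 on chromosome 3, and of the other members it was S100a6 that it followed most closely (r = 0.782 over 16 arrays, 0.796 with group means removed). Its untreated values were 0.26, 0.00 and -0.83. At 2 weeks it stood at 1.75, -0.28 and 0.24, so that 2 of 3 arrays lay within the untreated range. At 4 weeks it stood at 1.59, 1.05, 2.24 and 1.18, and on regular diet it ran from 0.87 over a median of 1.79 to 2.88, all above the untreated arrays. The differences were 0.76 ± 0.54 (SE, adjusted p = 0.864), 1.71 ± 0.50 (adjusted p = 0.225) and 1.96 ± 0.47 (adjusted p = 0.0768) in turn, none past the call. The last passed it in 1 of 16 fits without 1 array, the one without 2-week array 1 (adjusted p = 0.0483). The difference between 4 and 2 weeks was 0.95 (95% confidence interval -0.19 to 2.09, adjusted p = 0.487).

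S100a11, whose protein is the partner of annexin A1, stood at 0.85, 0.00 and -0.31 on the untreated arrays, at 2.32, 1.13 and 2.27 at 2 weeks, and at 1.28, 1.04, 1.90 and 1.22 at 4 weeks. Both CPZ groups lay above the untreated arrays. On regular diet it ran from 0.59 over a median of 1.49 to 2.60, and its lowest array fell within the untreated range. The differences were 1.73 ± 0.41 (SE, adjusted p = 0.131), 1.18 ± 0.38 (adjusted p = 0.285) and 1.37 ± 0.42 (adjusted p = 0.198), none past the call.

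Of the annexins, none was called in any comparison. Anxa2, which with S100A10 forms a tetramer at the cell membrane, stood at 0.64, 0.00 and -1.10 on the untreated arrays, 1.95, 0.12 and 0.94 at 2 weeks, and 0.42, 0.67, 1.96 and 0.78 at 4 weeks. Both CPZ groups overlapped with the untreated arrays. On regular diet it ran from 0.92 over a median of 1.11 to 2.73, above every untreated array. The differences were 1.16 ± 0.60 (SE, adjusted p = 0.665), 1.11 ± 0.56 (adjusted p = 0.577) and 1.67 ± 0.52 (adjusted p = 0.215). Its second probe gave differences of 1.00, 1.02 and 1.60 with the same pattern of overlap, so the 2 probes did not disagree. Anxa2 thus had a smaller difference than its partner S100a10 at both CPZ times, and a larger one on regular diet. Without regular-diet arrays 1 and 2 that order turned, at 1.19 for Anxa2 and 1.33 for S100a10. The 2 genes were not tested against each other.

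Anxa3, an annexin known from phagocytes and found in microglia, had the widest spread of the members on regular diet (SD 1.61, n = 6). Its untreated values were 0.61, 0.00 and -0.13. At 2 weeks it stood at 2.01, 0.78 and 1.87, at 4 weeks at 2.19, 0.74, 2.11 and 1.55, and on regular diet it ran from 0.75 over a median of 1.71 to 4.51. All 13 later arrays lay above the untreated ones. The 2 highest values, 4.14 and 4.51, were those of regular-diet arrays 1 and 2. The differences were 1.40 ± 0.45 (SE, adjusted p = 0.282), 1.49 ± 0.43 (adjusted p = 0.209) and 2.16 ± 0.74 (adjusted p = 0.293), the last of which was 1.15 without regular-diet arrays 1 and 2.

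Anxa5, which binds phosphatidylserine on dying cells, had smaller differences and overlapped with the untreated arrays in every group. It stood at 0.83, 0.00 and -0.19 on the untreated arrays, 1.72, 0.47 and 1.01 at 2 weeks, 0.07, 0.56, 2.06 and 0.30 at 4 weeks, and from 0.60 over a median of 0.96 to 1.49 on regular diet. The differences were 0.86 ± 0.54 (SE, adjusted p = 0.805), 0.54 ± 0.51 (adjusted p = 0.83) and 0.74 ± 0.40 (adjusted p = 0.52).

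Anxa1, a mediator that dampens inflammation through formyl peptide receptors, overlapped with the untreated arrays in every group. It stood at 0.75, 0.00 and -1.83 on the untreated arrays, 1.35, 0.00 and -0.16 at 2 weeks, -1.60, 0.26, 1.33 and -0.48 at 4 weeks, and from -1.51 over a median of 0.03 to 0.69 on regular diet. The spread within the untreated group (SD 1.33, n = 3) was larger than any difference between groups. The differences were 0.76 ± 0.84 (SE, adjusted p = 0.893), 0.24 ± 0.79 (adjusted p = 0.949) and 0.24 ± 0.67 (adjusted p = 0.883), and the interval at 4 weeks ran from -1.54 to 2.02, which covers a 2-fold change either way. Its sign at 4 weeks and on regular diet turned with another background correction (-0.089 and -0.31 with normexp). With array weights its regular-diet difference was 1.57 and passed the call (adjusted p = 0.0298 in limma).

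Lgals1, which encodes galectin-1, stood at 0.86, 0.00 and -0.02 on the untreated arrays and at 1.72, 0.19 and 0.85 at 2 weeks, so that these groups overlapped. At 4 weeks it stood at 2.29, 1.46, 2.00 and 1.93, and on regular diet it ran from 1.00 over a median of 1.28 to 2.85, with arrays 1 and 2 highest at 2.55 and 2.85. The 4-week and regular-diet arrays all lay above the untreated ones. The differences were 0.64 ± 0.41 (SE, adjusted p = 0.809), 1.64 ± 0.38 (adjusted p = 0.122) and 1.42 ± 0.44 (adjusted p = 0.204). Between 4 and 2 weeks Lgals1 differed by 1.00 (95% confidence interval 0.13 to 1.87, adjusted p = 0.455 in limma).

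**Figure D2:**
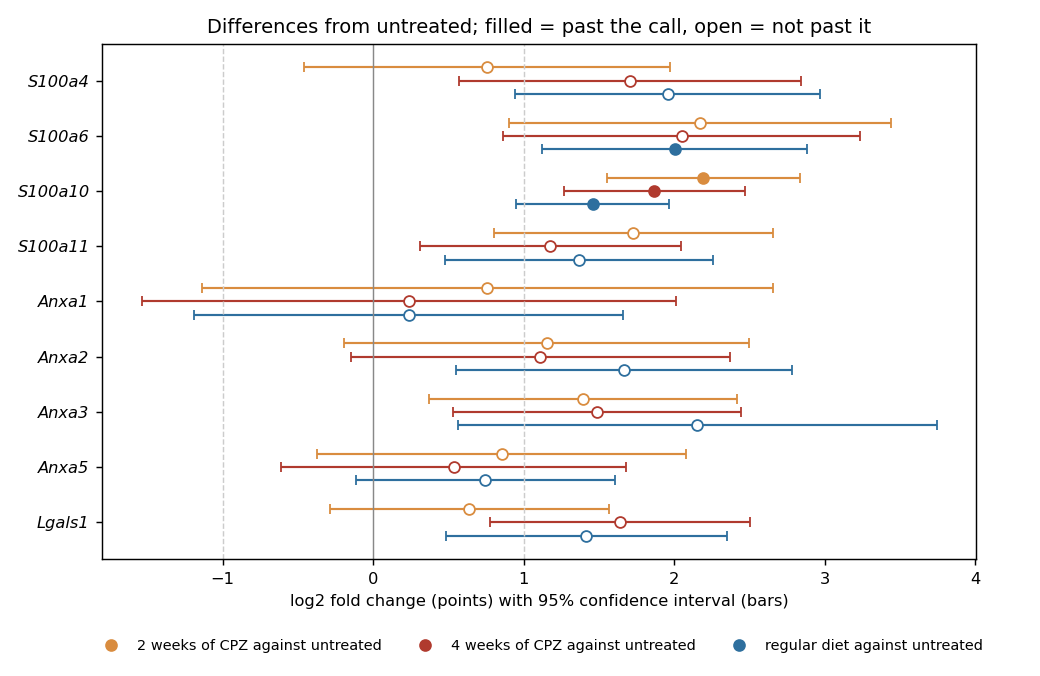
Difference from untreated (x axis, log2 fold change with its 95% confidence interval) for the 9 members (y axis) at 2 weeks of CPZ, 4 weeks of CPZ and on regular diet. Filled points passed the call, dashed lines mark 2-fold. S100a10 had the narrowest intervals and passed in all 3 comparisons, while the intervals of Anxa1 ran from -1.54 to 2.66 over the 3 comparisons.

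Counted without a test, every array lay above every untreated array for 4 of 9 members at 2 weeks (S100a6, S100a10, S100a11 and Anxa3), against 8.37% of all tested probes. At 4 weeks this held for 6 of 9 (S100a4 and Lgals1 in addition), against 5.29%. On regular diet it also held for 6 of 9, with Anxa2 in place of S100a11, against 4.93%. Anxa1 and Anxa5 overlapped with the untreated arrays in all 3 comparisons. These counts do not compare one time with another, and the way the members were chosen limits them in the same way as the counts of calls. No member was called between 4 and 2 weeks, where 3 of 27493 probes were called (0.0109%). With array weights 2 members were called there, in a fit that called 9.05% of all probes. The members' differences there ran from -0.55 to 1.00 with a median of -0.12. Between regular diet and 4 weeks no member was called either, against 1 probe of 27773 (0.0036%). The differences ran from -0.41 for S100a10 (95% confidence interval -0.88 to 0.06, adjusted p = 0.252) to 0.67 for Anxa3 (-0.78 to 2.12, adjusted p = 0.549). Anxa3 turned to -0.34 without regular-diet arrays 1 and 2. At an unadjusted p under 0.05 the counts were 1 and 0 members, against 10.5 and 24.7% of all probes.

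The arrays sat on 4 slides, of 4 arrays each, and each slide held more than 1 group. Within slides 2 and 3, which each held 1 untreated and 1 4-week array, all 9 members were higher at 4 weeks, with median differences of 2.00 and 2.18. Within slide 1, the 2 2-week arrays were above the untreated array for 8 of 9 members, with a median of 0.80 and Anxa1 the exception at -0.15. Regular diet against untreated was positive for 7, 8 and 9 of 9 members on slides 1, 2 and 3, with medians of 0.41, 1.90 and 1.91. Between 4 and 2 weeks, slide 4 gave 6 of 9 positive with a median of 0.36, opposite in sign to the median over all arrays. Regular diet against 4 weeks was positive for 2, 6 and 6 of 9 members on slides 2, 3 and 4, with medians of -0.31, 0.47 and 0.43. With the slide as a fixed block, 5 members passed the call at 4 weeks, in a fit that called 1.52% of all probes higher. S100a10 was joined by S100a6 (2.75, adjusted p = 0.0148), S100a11 (1.67, 0.0179), Anxa3 (2.09, 0.028) and Lgals1 (2.10, 0.0337). At 2 weeks, that block brought in S100a6 (2.21, adjusted p = 0.0494) and left out S100a10 (2.21, 0.0612), with 0.298% of all probes called higher. On regular diet it added S100a4 (2.16, 0.0268), with 0.933% called higher. With the slide as a random block instead, 3 members passed at 4 weeks, against 1.03% of all probes. Over the 14 alternatives, those that leave out 1 array aside, the adjusted p at 4 weeks ran from 0.00265 to 0.951 for S100a6, 0.00391 to 0.951 for S100a11, 0.00252 to 1 for Anxa3 and 0.000943 to 0.993 for Lgals1. It ran from 0.000111 to 1 for S100a6 and from 5.03e-05 to 1 for S100a10 at 2 weeks, and from 0.000357 to 0.948 for S100a4 on regular diet.

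Most members varied together, within the groups as well as over all arrays. Over the 16 arrays the correlation of a member with the mean of the other 8 was 0.918 for S100a6, 0.924 for Anxa2 and 0.864 for S100a11, and 0.311 for Anxa1. Over the 36 pairs of members the median correlation was 0.623 (from -0.146 to 0.87), and 0.546 after the mean of each group was removed. With group means removed, the correlation with the mean of the other 8 ran from 0.657 to 0.945 for 6 members, and was 0.52 for Anxa3, 0.44 for S100a4 and 0.293 for Anxa1. The mean of the 9 members was highest at 2.06 on array 1 of the 2-week group, at 2.05 on array 3 of the 4-week group and at 2.20 on array 2 of the regular-diet group, and was -0.62 on untreated array 3. Points in these correlations share the scaling of an array, and its makeup of cells. Of 13980 genes, those with a pattern most like the mean of the members were Pdlim4 (r = 0.968), Slc14a1 (0.958), Smo (0.954), Pgghg (0.953), Mamdc2 (0.946), Tmco4 (0.937), Trim47 (0.934), Vim (0.933), Cxcr4 (0.932) and Efemp2 (0.926), over 16 arrays. Vim encodes vimentin, an intermediate filament of reactive astrocytes, and Slc14a1 a urea transporter that astrocytes carry.

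Markers of several cell types moved with the members. The median of the 6 tested markers of reactive astrocytes lay between -0.62 and 0.03 on untreated arrays, 1.25 and 2.86 at 2 weeks, 0.91 and 2.87 at 4 weeks, and 1.40 and 3.11 on regular diet. Of these, Serpina3n (2.62, adjusted p = 0.0164) and Cd44 (3.37, adjusted p = 0.0222) were called on regular diet. The median of the 12 tested markers of microglia and macrophages lay between -0.14 and 0.94, 0.15 and 1.49, 1.1 and 2.16, and 1.34 and 4.45 in the same order, the highest values being those of regular-diet arrays 1 and 2 (4.12 and 4.45). At 2 weeks 9 of these 12 markers had a positive difference from untreated, and the lowest difference was -0.60. Among 9 members and 13 marker lists, each member was then set beside the list that it followed most closely, a choice made after these values were seen. Anxa3 (r = 0.959 over 16 arrays, 0.966 with group means removed and 0.866 without regular-diet arrays 1 and 2), Lgals1 (0.907, 0.927 and 0.914) and Anxa2 (0.852, 0.789 and 0.771) followed the microglia and macrophage list. S100a11 (0.909, 0.856 with group means removed), S100a6 (0.902, 0.706) and S100a10 (0.824, 0.586) followed the reactive astrocyte list. With group means removed, S100a11 was nearly as close to the microglia and macrophage list (0.831). Anxa3 and Lgals1 then had 0.853 and 0.821 with the reactive astrocyte list. S100a4 had nearly the same correlation with that list (0.619) and with the general astrocyte list (0.617), and with group means removed it was higher with the blood-borne myeloid (0.705), myelinating oligodendrocyte (0.661) and ependyma (0.652) lists than with the reactive astrocyte list (0.274). Anxa2 was likewise nearly as close to the reactive astrocyte list (0.84) as to the microglia and macrophage list. Without the 2 arrays farthest from the median of the reactive astrocyte list, untreated arrays 2 and 3, the correlations with that list were 0.825, 0.807, 0.677 and 0.352 for S100a11, S100a6, S100a10 and S100a4. Anxa5 was closest to the general astrocyte list (0.728, and 0.571 without the 2 farthest arrays), and nearly as close to the reactive astrocyte list (0.712). With group means removed, it had 0.704 with general astrocytes, 0.687 with oligodendrocyte precursors and 0.656 with reactive astrocytes.

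Anxa1 followed the 6 markers of ependyma, the ciliated lining of the ventricles that lies against the corpus callosum, with r = 0.912 over 16 arrays, 0.961 with group means removed and 0.857 without 4-week array 1 and regular-diet array 1. The median of the ependyma list was 0.64, 0.00 and -1.82 on the untreated arrays, 0.97, -1.42 and -0.98 at 2 weeks, and -2.25, 0.11, 0.92 and -0.75 at 4 weeks, with -1.89 on regular-diet array 1 as the lowest of its group. The highest array of Anxa1 in the untreated, 2-week and 4-week groups was also the highest of the ependyma list. On regular diet Anxa1 was highest on array 4 (0.69) and the list on array 6 (0.4114, against 0.4077 on array 4). All 6 ependyma markers were well above background on all 16 arrays. Correlations between Anxa1 and the choroid plexus, meninges and fibroblast, and endothelium lists were 0.738, 0.674 and 0.615. Of markers of blood-borne myeloid cells, Ccr2, Ngp, Retnlg, Mmp8 and Cxcr2 were well above background on 0 of 16 arrays, Camp on 1, Plac8 on 5, S100a8 on 11, S100a9 on 15 and Ly6c2 on all 16. Of these 10 markers 3 were tested. The part of these cell types in the values of the members was not tested.

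**Figure D3:**
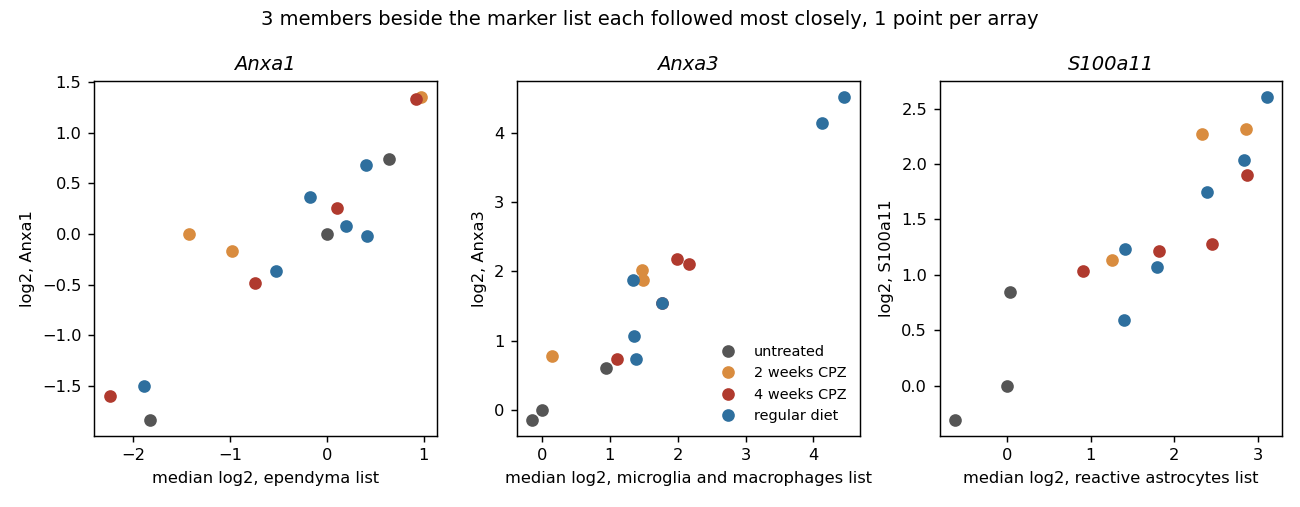
Log2 value of 3 members (y axes) against the median log2 of the marker list that each followed most closely (x axes), 1 point per array, coloured by group and relative to the untreated median. Anxa1 lay along the ependyma list with all groups mixed, Anxa3 along the microglia and macrophage list with regular-diet arrays 1 and 2 at the top right, and S100a11 along the reactive astrocyte list.

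The other genes of the same families were set beside the members. Of 12 other S100 genes listed, 7 passed the filter on dim probes, and none was called in any of the 3 comparisons with untreated. Their median differences were -0.34 at 2 weeks, 0.09 at 4 weeks and -0.02 on regular diet. S100a3 was the highest at 4 weeks (0.92, adjusted p = 0.565), followed by S100a8 (0.27), a subunit of the neutrophil protein calprotectin. The lowest were S100a16 (-0.29) and S100b (-0.27), the astrocyte and oligodendrocyte S100. At 2 weeks both lay below every untreated array on every array, with differences of -0.67 (adjusted p = 0.893) and -1.01 (adjusted p = 0.316). S100a3 lay above every untreated array in all 3 groups, with differences of 1.07 at 2 weeks and 0.96 on regular diet that did not pass the call (adjusted p = 0.554 and 0.387). Of 8 other annexins, 6 were tested and none was called, with medians of 0.23, 0.12 and -0.10. At 4 weeks Anxa4 (0.68) and Anxa11 (0.38) were the highest, and Anxa9 (-0.62) and Anxa6 (-0.07) the lowest. Anxa9 had the other sign at 2 weeks (0.75) and on regular diet (1.30), and Anxa4 stood at 1.01 on regular diet (adjusted p = 0.315), above every untreated array.

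Of 9 other galectin genes, with the galectin-3-binding protein among them, 6 were tested. Lgals3, a galectin of activated microglia and macrophages, rose on regular diet by 3.82 on the log2 scale (adjusted p = 0.00491), and Lgals3bp, which encodes a secreted ligand of it, by 3.65 (adjusted p = 0.0109). At 4 weeks their differences of 2.99 (adjusted p = 0.0579) and 3.06 (adjusted p = 0.0585) did not pass, nor did those of 2.73 (adjusted p = 0.0728) and 2.60 (adjusted p = 0.0904) at 2 weeks. Lgals1 therefore had a smaller difference than Lgals3 in each of these comparisons, and the 2 genes were not tested against each other. Lgals2 (-1.02) and Lgals4 (-0.36) were the lowest at 4 weeks. At 2 weeks Lgals2 differed by -2.42 (adjusted p = 0.121), every array below every untreated array, while Lgals4 differed by 1.86 (adjusted p = 0.674) with overlap. The medians of the list were 1.51, 0.51 and 1.67.

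Of 13 partners and receptors of the members, 10 were tested. Ptprc, which encodes the galectin-1 ligand CD45 of leukocytes and microglia, rose on regular diet by 3.45 (adjusted p = 0.0201), and was 2.36 above untreated at 4 weeks (adjusted p = 0.0681). Plau, the urokinase plasminogen activator, was 2.01 above untreated at 4 weeks (adjusted p = 0.0911). Plat, the tissue plasminogen activator, which the annexin A2 tetramer binds at the cell surface, differed by 0.29, -0.27 and 0.23 at 2 weeks, at 4 weeks and on regular diet. Ager, the receptor RAGE for S100 proteins, differed by 1.11, 0.12 and 0.69 in the same order (adjusted p = 0.75, 0.967 and 0.573), with every array above every untreated array at 2 weeks and on regular diet. The medians of this list were 0.47, 0.57 and 0.72, and no gene of it was called at 2 or 4 weeks.

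**Figure D4:**
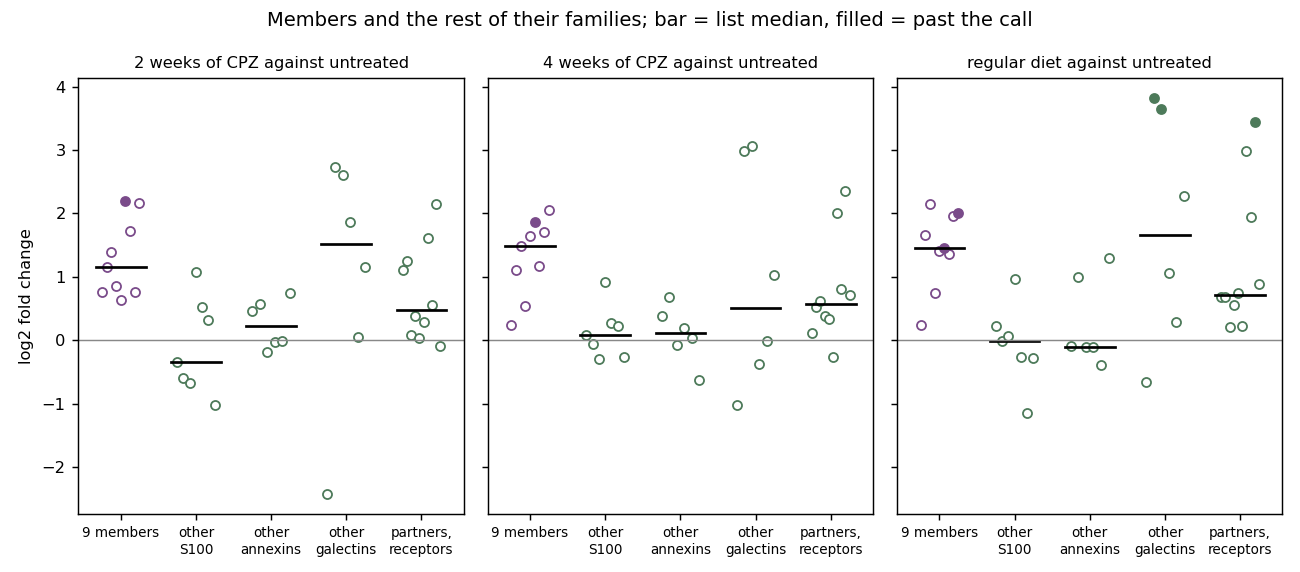
Log2 fold change (y axis) of the 9 members, the other S100 genes, other annexins, other galectins, and partners and receptors (x axis) in the 3 comparisons with untreated, 1 point per tested gene. Black bars are list medians and filled points passed the call. The medians of the members were 1.16, 1.49 and 1.46, those of the other S100 genes -0.34, 0.09 and -0.02.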

How the data were processed

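The members and all gene lists were chosen with earlier results of these data known. The authors extracted signals with Agilent Feature Extraction (version 11.0.1.1 in the file headers) and deposited, per spot, a background-subtracted intensity. A second deposited table holds log2 values, scaled in GeneSpring to the 75th percentile of each array and set to the median of the untreated arrays. The baseline was found from the values. Columns of this table were used by the sample they name. Detection flags and slides came from the array matching each column, and 99.97% of detected values lay within 0.05 log2 of it. Probe accessions were matched to RefSeq genes of GRCm38.p6, which named 27459 of 41153 probes (66.7%). The number of arrays limits the precision.

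A probe was kept if some group of the fit had it well above background on all its arrays. The untreated, 2-week and 4-week groups (10 arrays, 27493 probes) were fitted together in limma 3.58.1 under R 4.3.3, with lmFit and eBayes, and all 16 arrays (27773 probes) for regular diet. The scripts were tested on simulated data. Besides the members, the text names, from the 4 lists of related genes, those called and the 2 highest and lowest at 4 weeks, from the marker lists those called or cited for their detection, and the 10 genes most like the mean of the members. Alternatives changed the array assignment, background correction, normalization, filter, blocks, weights, groups fitted, call rule and arrays used. Leaving out regular-diet arrays 1 and 2 was chosen after the data were seen.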

Additional observations from a re-analysis of the deposited data

Results flagged for a closer look

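Of 20 groups of 4 or 6 arrays tested for a lone value, 1 held one, and chance gives about 1 in 20. For the second, dimmer probe of Anxa2, array 3 of the 4-week group stood at 1.66, with the nearest of the other 3 arrays at 0.33, and this gap was 0.846 of the whole range of the group. The brighter probe of Anxa2 was also highest on this array (1.96), as were S100a4, S100a6, S100a11, Anxa1 and Anxa5. The medians of 8 of the 13 marker lists were also highest there within the 4-week group, with 2.16 for microglia and macrophages, 2.87 for reactive astrocytes, 0.81 for astrocytes, 0.92 for ependyma, 3.44 for choroid plexus, 1.12 for blood-borne myeloid cells, -1.69 for myelinating oligodendrocytes and -0.025 for their precursors. Their part in the value was not tested.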

How the results depend on the processing

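S100a10 was called in 10 of 14 alternatives at 2 weeks, 10 of 14 at 4 weeks and 12 of 14 on regular diet, leaving out 1 array aside. With the scanner files as recorded for each sample, 0 members were called in any comparison, in fits that called 0% of all probes. At 2 weeks S100a10 was then -0.12, S100a11 -0.57, Anxa3 -0.19 and Anxa5 -0.018. At 4 weeks S100a6 was -0.95, S100a10 -0.66, S100a11 -0.97, Anxa1 -1.18, Anxa2 -0.54, Anxa3 -0.019, Anxa5 -0.71 and Lgals1 -0.13. Between 4 and 2 weeks S100a4 was -1.16 and Lgals1 -0.41. On regular diet S100a6 was -0.33, S100a11 -0.41, Anxa1 -1.14, Anxa2 -0.29 and Anxa5 -0.59, and against 4 weeks S100a10 was 0.83. With array weights, 6 members were called at 2 weeks, 7 at 4 weeks, 8 on regular diet and 2 between 4 and 2 weeks, in fits that called 6.38, 6.91, 3.86 and 9.05% of all probes in either direction.

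At 4 weeks 0 members were called after quantile normalization (0.0364% of all probes called higher) or with no filter on dim probes (0.0219%). With the slide as a fixed block 5 were called (1.52%), and 3 with it as a random block (1.03%). At 2 weeks 0 members were called in a fit of only the 2 groups compared, which called 0% of all 27393 probes. On regular diet 1 was called by the methods' ANOVA with Tukey's test (0.0432% of all probes called higher) and 1 without regular-diet arrays 1 and 2 (0.697%), where Anxa3 against 4 weeks was -0.34. With normexp background correction Anxa1 was -0.089 at 4 weeks and -0.31 on regular diet. Leaving out each array in turn gave 0 to 1 members called at 2 weeks, 0 to 1 at 4 weeks and 0 to 3 on regular diet, in fits that called 0 to 0.197, 0 to 0.519 and 0.018 to 0.843% of all probes higher, and Anxa1 ranged from -0.50 to 0.79 at 4 weeks and from -0.50 to 0.79 on regular diet. Samples with the same replicate number did not all deviate together (correlations from -0.642 to 0.41 over 19 pairs, 5 of them over 0.1). With the replicate number as a block 0 members were called at 2 weeks, 0 at 4 weeks and 0 on regular diet. Those fits called 0, 0 and 0.0864% of all probes in turn. The cause of these changes was not tested. Neither comparison between the later groups had a called member under the other alternatives. The same 3 untreated arrays serve all comparisons with untreated.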

Other observations

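The remaining marker lists are given as ranges of the list median over the arrays of a group, in the order untreated, 2 weeks, 4 weeks and regular diet. The 8 general astrocyte markers lay between -0.22 and 0.51, 0.24 and 0.60, 0.02 and 0.81, and 0.24 and 0.66. The 6 markers of oligodendrocyte precursors lay between -0.46 and 0.38, -1.33 and -0.27, -1.52 and -0.02, and -0.70 and 0.38. The 7 neuronal markers lay between -0.50 and 0.26, -1.10 and 0.60, -0.31 and 0.57, and -1.07 and 0.04. The 8 endothelial markers lay between -0.17 and 0.50, -0.16 and 0.03, -0.74 and 0.37, and -0.91 and 0.20.

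The 6 tested markers of choroid plexus, the tissue that secretes cerebrospinal fluid, lay between -1.13 and 1.35, -0.92 and 1.22, -2.08 and 3.44, and -1.99 and 3.03. The 8 markers of meninges and fibroblasts lay between -0.53 and 0.03, -0.49 and 1.86, -0.80 and 0.36, and -1.54 and 1.48, and the 3 tested red blood cell markers between -0.01 and 0.60, -0.98 and 0.94, -0.27 and 1.37, and -0.66 and 0.97. The 2 tested T cell markers lay between -0.02 and 0.09, 0.31 and 0.52, 0.05 and 0.68, and 0.44 and 0.70. The 3 tested markers of blood-borne myeloid cells lay between -0.41 and 0.64, -0.42 and 1.40, -0.39 and 1.12, and -1.19 and 0.16. None of these lists had a member gene of the report among its markers.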
